A study of Mus musculus with 6 samples.

Results

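Collagen chain genes were examined in quadriceps muscle of mice with and without a muscle deletion of Pofut1. The members were the genes named by a Col symbol with a chain number to which the array's annotation assigned at least 1 probe set of their own, 42 of the 18194 genes measured, read by 82 of 45101 probe sets. By class they were 11 fibrillar chains, 6 basement membrane chains of type IV, 5 chains of collagen VI and 20 others. Each gene was represented by the probe set with the highest mean over the 6 arrays, a choice that does not use genotype. The knockout group held 3 quadriceps samples from 2-month-old C57/Bl6 mice carrying a skeletal alpha-actin cre transgene and Pofut1 flox/flox alleles. The control group held 3 samples of that age and strain that carried the cre transgene too but had wild-type Pofut1, so cre was common to both groups. Each sample was read on 1 array, in probe set intensities on a linear scale, which were compared after log2 transformation. Since nothing in the labels ties each sample to its own animal, the p-values reflect spread among these samples only, and that spread may be technical. Pofut1 encodes the enzyme that attaches O-linked fucose to EGF-like repeats, among them those of the Notch receptors. The comparison addresses muscle RNA after loss of Pofut1.

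Collagens are trimers whose chains wind around each other in a triple helix built on short repeats that each start with glycine. Fibrillar collagens I and III form the fibres of tendon and of the sheaths around muscle, and collagen V controls the diameter of those fibres. Collagen IV forms the network of the basement membrane that wraps each muscle fibre and capillary, and collagen VI forms beaded filaments that link that membrane to the surrounding matrix. In muscle, collagens are made largely by fibroblasts, whereas the skeletal alpha-actin promoter that drives the transgene is active in muscle fibres. Whole-tissue RNA was measured, so fewer cells of a type and less RNA per cell cannot be told apart.

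No collagen chain differed between the groups past the threshold, an adjusted p of 0.05 in limma with Benjamini-Hochberg adjustment over all genes. Limma called 0 of the 42 chains and 0 of all genes (0%), and the smallest adjusted p of any chain was 0.971. The lowest unadjusted p-values among the chains belonged to Col6a1 and Col6a2, genes for partner chains of collagen VI. Both had lower values in all 3 knockout samples than in any control sample, by 1.28-fold and 1.35-fold. Col1a1, Col1a2 and Col3a1, the genes of the main fibril collagens, had log2 fold changes of 0.09, 0.11 and -0.07, with values that overlapped between the groups. At an unadjusted p under 0.05 limma gave 2 of 42 chains lower and 0 higher, against 1.58% of all genes lower and 1.0% higher (287 and 182 genes). The number of chains with such a p was 6 without control replicate 2, and 1 without control replicate 1, knockout replicate 2 or knockout replicate 3. Chains whose groups did not overlap numbered 3 lower and 0 higher, against 5.68% and 3.33% of all genes. Of the 42 chains 23 had a log2 fold change below 0, against 53.7% of all genes. The median over the chains was -0.005, and over all genes it was -0.01. As a list the collagens therefore stood close to the whole table.

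Some facts of the whole series touch these values. The array labelled control replicate 3 correlated with the other arrays at 0.940 to 0.945 over all genes, while the other 5 correlated with each other at 0.980 to 0.991. The intensity ratio of the 3' to the 5' control probe sets of Gapdh, a measure of RNA integrity and cDNA length, was 10.5 in that array and 3.70 in knockout replicate 2, against 1.73 to 1.97 in the other 4. By their sex-chromosome transcripts, replicate 2 of each group looked female and the other 4 arrays male. Pofut1 intensities were 220.1, 231 and 194 for the knockout samples, against 301, 379.8 and 90.6 for the control samples, so the lowest value lay in an array labelled control. Its log2 fold change was -0.02 ± 0.52 (SE, n = 3 per group, limma adjusted p = 0.998). Dropping the array labelled control replicate 3 gave -0.66. Estimates with that array left out are therefore given beside those from all 6 arrays. Without it limma called 0 chains, with 2 chains lower and 0 higher at an unadjusted p under 0.05, against 3.95% and 2.04% of all genes. A level was called above background when it exceeded the 95th percentile of 35 genes restricted to other tissues, an intensity of 74.8. By this measure 28 chains had a mean above background, 21 of them on all 6 arrays, and 14 had a mean below it. Nearest the limit, Col19a1 had a mean of 6.29 and Col13a1 a mean of 6.09 on the log2 scale, where the limit was 6.22.

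**Figure D1:**
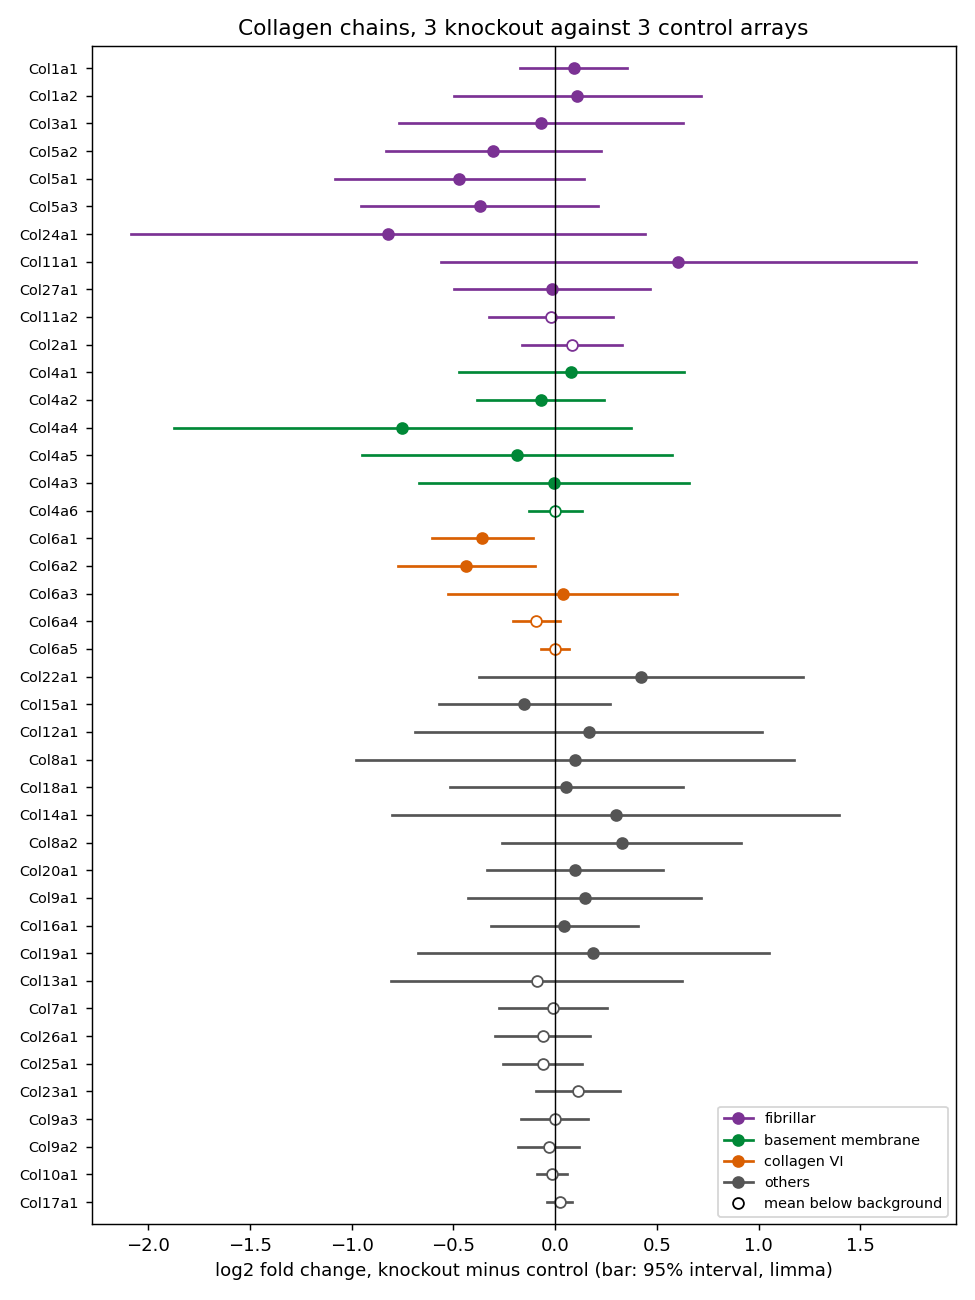
Log2 fold change of each of the 42 collagen chains (horizontal axis, knockout minus control, log2 units), ordered by class on the vertical axis, from 3 knockout and 3 control arrays. Points are limma estimates, bars are 95% intervals, and open points are chains with a mean below background. The intervals of Col6a1 and Col6a2 lie wholly below 0 before adjustment for multiple tests, and those of the other chains include 0.

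Collagen VI, a trimer of the Col6a1, Col6a2 and Col6a3 chains, had a median log2 fold change of -0.09 over its 5 measured members. That value is the estimate of Col6a4, a chain below background. Over the 3 chains above background the median was -0.36, and over all 5 it was -0.14 with the array labelled control replicate 3 left out. Col6a1 had intensities of 1856, 1695 and 1788 in the knockout samples and of 2292, 2308 and 2234 in the control samples, here and below in the order of the replicate numbers. The 3 knockout values were all below the 3 control values, and the control values lay close together. The log2 fold change was -0.36 ± 0.10 (SE, n = 3 per group), with a 95% interval of -0.60 to -0.11, an unadjusted p of 0.0111 and an adjusted p of 0.971 in limma. It passed the adjusted threshold under none of 15 settings tried, in which the log2 fold change ran from -0.39 to -0.32 and the limma adjusted p from 0.283 to 1.0. Col6a1 had 1 probe set.

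Col6a2, whose chain pairs with that of Col6a1 in every collagen VI monomer, read 1714, 1340.1 and 1373 in the knockout and 2159, 1852 and 1955 in the control samples. Again no knockout sample reached the lowest control sample. The log2 fold change was -0.44 ± 0.14 (SE, n = 3 per group), with an interval of -0.77 to -0.10, an unadjusted p of 0.0184 and an adjusted p of 0.971 in limma. A second probe set of the gene read 796, 650.5 and 655 in the knockout and 1185, 1056 and 1069 in the control samples, also without overlap. In a limma fit over every probe set its log2 fold change was -0.66 ± 0.16 (SE), a 1.58-fold lower value, with an unadjusted p of 0.00379 and an adjusted p of 0.987. Both probe sets read the same RNA samples and are not independent evidence. Without the array labelled control replicate 3 the log2 fold changes were -0.37 for Col6a1 and -0.45 for Col6a2, and without both arrays with high Gapdh ratios they were -0.34 and -0.38.

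Col6a3, the gene of the largest chain of the trimer, behaved differently from sample to sample. It read 1002, 628 and 739 in the knockout and 859, 853 and 588 in the control samples. The groups overlapped, with the highest value in knockout replicate 1 and the lowest in the array labelled control replicate 3. Its log2 fold change was 0.04 ± 0.24 (SE), with an interval of -0.53 to 0.60 (limma adjusted p = 0.994), and it turned to -0.14 when the array labelled control replicate 3 was left out. That interval includes the estimates of Col6a1 and Col6a2. Within each array the log2 difference of Col6a2 from Col6a3 was lower in the knockout by 0.47 on average, without overlap between groups. An exact two-sided permutation test over samples gave p = 0.1, the smallest that 3 against 3 samples allow, and 0.60 after adjustment over 6 chain pairs. The same difference of Col6a1 from Col6a3 averaged -0.39 with overlap (exact p = 0.2). Since no outcome of this test could fall under 0.05, it cannot decide whether the chains of this trimer differed from each other. Col6a4 and Col6a5, chains related to Col6a3, were below background on all 6 arrays. Col6a4 read 38.9, 39.8 and 39.3 in the knockout and 42.0, 39.3 and 44.7 in the control samples, and its log2 fold change of -0.09 carries no information on RNA below background.

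**Figure D2:**
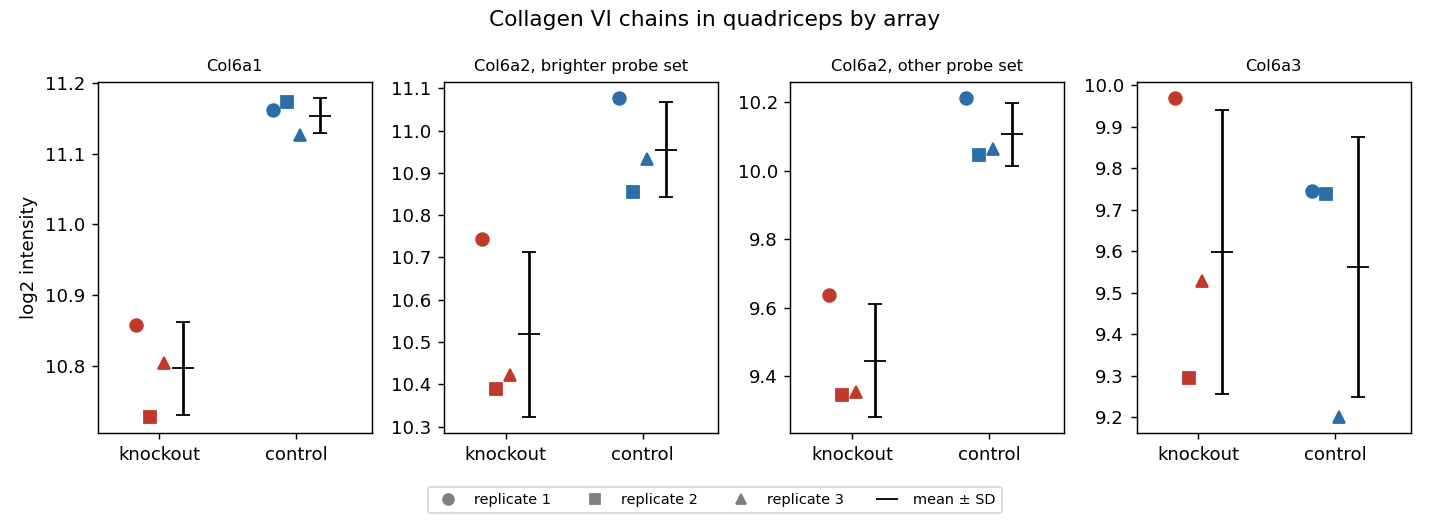
Log2 intensity (vertical axis, a different range in each panel) of Col6a1, of both probe sets of Col6a2 and of Col6a3 in 3 knockout samples (red) and 3 control samples (blue), with marker shape giving the replicate number and black bars the mean ± SD. All knockout points lie below all control points for Col6a1 and for both Col6a2 probe sets, whereas those of Col6a3 overlap.

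Col6a2 and Col6a1 are neighbours on chromosome 10 in the RefSeq gene order, while Col6a3 lies on chromosome 1. Their start regions are shown because these 3 genes encode the chains of one trimer and Col6a1 and Col6a2 had the smallest p-values of the collagens. The windows run from 250 bases before to 50 bases after an annotated start, are credited to RefSeq assembly GRCm38.p6 and are written 5′ to 3′ on the minus strand, which carries all 3 genes. They lie at chr10:76725995-76726294 for Col6a1, at chr10:76623581-76623880 and chr10:76623355-76623654 for the upstream and downstream starts of Col6a2, and at chr1:90843922-90844221 for Col6a3. Capitals mark matches to any of 4 motifs searched on both strands.
Col6a1: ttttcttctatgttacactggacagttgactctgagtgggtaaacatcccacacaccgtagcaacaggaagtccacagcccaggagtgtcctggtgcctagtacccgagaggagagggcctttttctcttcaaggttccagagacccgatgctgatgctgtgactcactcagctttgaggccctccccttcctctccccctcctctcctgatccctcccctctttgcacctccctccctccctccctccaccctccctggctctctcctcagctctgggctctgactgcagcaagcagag
Col6a2 upstream start: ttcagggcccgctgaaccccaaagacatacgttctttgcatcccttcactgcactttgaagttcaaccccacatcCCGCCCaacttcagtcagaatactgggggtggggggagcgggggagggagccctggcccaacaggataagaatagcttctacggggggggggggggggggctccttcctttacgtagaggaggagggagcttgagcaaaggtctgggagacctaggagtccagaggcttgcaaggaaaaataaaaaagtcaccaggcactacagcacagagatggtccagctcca
Col6a2 downstream start: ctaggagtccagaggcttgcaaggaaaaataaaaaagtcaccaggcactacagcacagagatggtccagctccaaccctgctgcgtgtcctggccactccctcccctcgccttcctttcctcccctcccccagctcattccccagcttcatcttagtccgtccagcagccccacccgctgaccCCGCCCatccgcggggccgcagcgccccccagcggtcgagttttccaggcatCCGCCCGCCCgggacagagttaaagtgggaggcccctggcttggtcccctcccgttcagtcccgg
Col6a3: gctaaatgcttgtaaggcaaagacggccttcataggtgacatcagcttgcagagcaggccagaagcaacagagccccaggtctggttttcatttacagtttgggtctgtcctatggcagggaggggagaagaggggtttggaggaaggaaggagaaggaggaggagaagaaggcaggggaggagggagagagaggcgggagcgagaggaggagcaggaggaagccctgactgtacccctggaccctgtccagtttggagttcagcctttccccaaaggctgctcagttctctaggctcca

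The first motif was the GC box GGGCGG, read by Sp factors. The second was the CCAAT box, spelled as its name. The remaining motifs were the TATA box, spelled TATAAA, and the core TGGGAA bound by RBPJ, the DNA-binding partner of Notch. Motifs can overlap, as the run of capitals with 2 GC boxes in the downstream window of Col6a2 shows. The downstream window of Col6a2 held 3 GC boxes and the upstream one held 1, while the windows of Col6a1 and Col6a3 held 0 matches to any of the motifs. Of all 32851 RefSeq windows of this length, 35.7% held a GC box, 37.4% a CCAAT box, 13.6% a TATA box and 25.6% an RBPJ core. Among 36 windows of collagen chains, from 33 of the 42 genes, 22 held a GC box, 13 a CCAAT box, 5 a TATA box and 10 an RBPJ core. A match is a description of letters and not a binding site.

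Fibrillar collagens gave 0 calls. Their median log2 fold change was -0.02 over 11 chains, 4 above 0 and 7 below, and with the array labelled control replicate 3 left out it was -0.10, again with 7 below. Col1a1, which encodes the main chain of type I collagen, read 5079, 4257 and 4872 in the knockout and 4088, 4556 and 4666 in the control samples. The ranges overlapped, and the log2 fold change of 0.09 ± 0.11 (SE) had an interval of -0.17 to 0.36 (limma adjusted p = 0.971). It was 0.13 with the array labelled control replicate 3 left out. Among the chains above background only Col6a1 had a narrower interval, and the half-width of these intervals ran from 0.25 to 1.26 with a median of 0.59.

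Col1a2, the second chain of type I collagen, varied more. It read 5360.2, 3034 and 4215 in the knockout and 3973, 4776 and 2882 in the control samples. The lowest values lay in knockout replicate 2 and the array labelled control replicate 3, one from each group. The log2 fold change was 0.11 ± 0.26 (SE, limma adjusted p = 0.976), and it was -0.09 without the array labelled control replicate 3. Col3a1, the chain of type III collagen, read 5153, 2163 and 3858 in the knockout and 3987, 3557 and 3519 in the control samples. Both the highest and the lowest value of Col3a1 lay in the knockout group. Its log2 fold change of -0.07 ± 0.30 (SE, limma adjusted p = 0.986) was -0.10 when the array labelled control replicate 3 was left out and 0.24 without both arrays with high Gapdh ratios.

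The 3 chains of collagen V, which start fibrils and limit their width, all had estimates below 0. Col5a1 read 629.9, 394 and 609.6 in the knockout and 974, 645 and 641 in the control samples. Its groups did not overlap, though the highest knockout value lay close to the lowest control value. The log2 fold change was -0.47 ± 0.26 (SE, unadjusted p = 0.112, limma adjusted p = 0.971), and -0.57 when the array labelled control replicate 3 was left out. A second probe set of Col5a1 had overlapping groups and a log2 fold change of 0.17, and its dimmest one had -0.29, so its probe sets did not share a direction.

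Col5a2 read 2119, 1302 and 1292 in the knockout and 2138, 1629 and 1928 in the control samples, with a log2 fold change of -0.30 ± 0.22 (SE) that was -0.29 with the array labelled control replicate 3 left out. Its second probe set gave -0.34. Col5a3 read 359.5, 263 and 307 in the knockout and 423, 297 and 499 in the control samples, with a log2 fold change of -0.37 ± 0.25 (SE) that was -0.21 without the array labelled control replicate 3. For both genes the groups overlapped, since knockout replicate 1 was above at least 1 control sample, and the limma adjusted p was 0.971.

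The remaining fibrillar chains were dimmer. Col24a1 read 97.8 to 124 in the knockout and 129, 119 and 479 in the control samples. The log2 fold change of -0.82 ± 0.53 (SE, limma adjusted p = 0.971), the lowest of all 42 chains, rested on the array labelled control replicate 3 and was -0.17 without it. Col11a1, a partner of the cartilage collagens, had the highest estimate of all chains, 0.61 ± 0.49 (SE, limma adjusted p = 0.971). It read 214 in knockout replicate 1 and 79.6 to 86.6 in the other knockout samples, and 44.5 to 120.2 in the control samples. Without the array labelled control replicate 3 the estimate was 0.23. Col27a1 had a log2 fold change of -0.02, and -0.12 when that array was left out. Col2a1 and Col11a2, chains of cartilage collagen, were below background on all 6 arrays.

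Probe sets of 3 fibrillar genes were compared in knockout replicate 2 and the array labelled control replicate 3, the arrays with the highest Gapdh 3' over 5' ratios. A second Col1a1 probe set read 1763 and 1581 in these arrays and 2646 to 3721 in the other 4, whereas the brighter one read 4257 and 4666 there, within the range of the rest. For Col1a2 the second probe set read 1229 and 1126 there and 2033 to 3249 elsewhere, and for Col3a1 it read 347 and 466 there and 571 to 1271 elsewhere. The brighter probe sets of both genes were lowest there too, at 3034 and 2882 for Col1a2 and at 2163 and 3519 for Col3a1. By rank the contrast between probe sets thus held for Col1a1 alone of these 3 genes, in that its brighter probe set was not lowest in both arrays. The brighter Col3a1 value of 3519 in the array labelled control replicate 3 lay close to the 3557 of control replicate 2, however. These arrays held the lowest pair of values in 17 of 43 collagen probe sets with a mean above background (39.5%) and the highest pair in 0. Over all probe sets above background the shares were 29.2% and 7.77%. One of these arrays belongs to each group, and the part of the ratio in the chains' values was not tested.

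**Figure D3:**
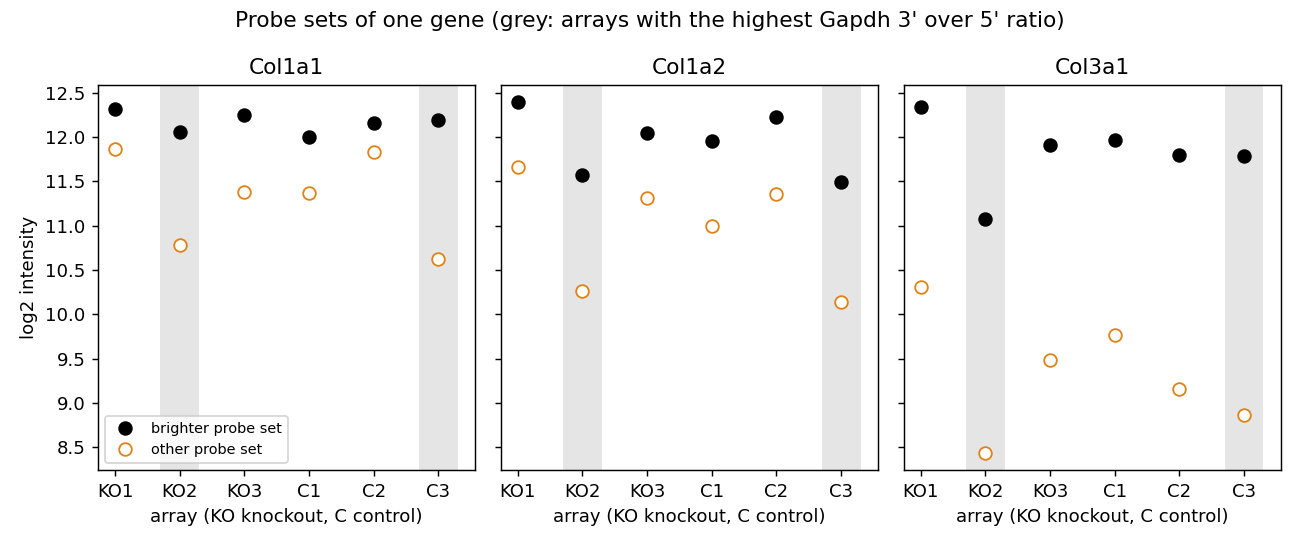
Log2 intensity (vertical axis) of the brighter probe set (black) and the other probe set above background (open orange) of Col1a1, Col1a2 and Col3a1 on each of 6 arrays (horizontal axis). Grey bands mark knockout replicate 2 and control replicate 3, in which the second probe sets of all 3 genes have their lowest values.

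The basement membrane chains of type IV gave 0 calls. Their median log2 fold change was -0.04 over 6 chains, 2 above 0 and 4 below. With the array labelled control replicate 3 left out all 6 estimates were below 0, with a median of -0.16, and limma called 0 of them. Col4a1 read 2579, 1618 and 2223 in the knockout and 2389, 2166 and 1516 in the control samples. Its partner Col4a2, which joins Col4a1 in the common trimer of basement membranes, read 2111, 1652 and 1883 in the knockout and 2007, 2057 and 1840.4 in the control samples. The groups of both genes overlapped, and in both knockout replicate 2 was the lowest knockout sample and the array labelled control replicate 3 the lowest control sample. The log2 fold changes were 0.08 ± 0.23 for Col4a1 (SE, limma adjusted p = 0.978) and -0.07 ± 0.13 for Col4a2 (SE, limma adjusted p = 0.971). They were -0.11 and -0.12 with the array labelled control replicate 3 left out. A second Col4a1 probe set gave -0.36 with its highest value, 687, in the array labelled control replicate 3. The directions of these 2 probe sets therefore differed.

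Col4a1 and Col4a2 lie head to head on chromosome 8, and their RefSeq start windows share 78 bases. The starts the windows were drawn from lie 21 bases apart, at 11312826 for Col4a1 (minus strand) and 11312805 for Col4a2 (plus strand). The annotated genes thus overlap at these starts. The shared stretch is shown because both genes start within it. It lies at chr8:11312777-11312854 (GRCm38.p6) and is written 5′ to 3′ on the plus strand, with its GC box in capitals.
Col4a1 and Col4a2 shared start region: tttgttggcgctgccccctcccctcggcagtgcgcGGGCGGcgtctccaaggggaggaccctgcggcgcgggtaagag

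The minor type IV chains, which replace the common ones in the kidney filter and other special membranes, were dimmer. Col4a4 read 127, 127 and 135 in the knockout and 189, 118 and 463 in the control samples. Its log2 fold change of -0.75 ± 0.48 (SE, limma adjusted p = 0.971) rested on the array labelled control replicate 3 and was -0.21 without it. A second Col4a4 probe set had its lowest value, 56.1, in that same array and a log2 fold change of 0.49. Col4a5, which is X-linked, read 207, 98.5 and 164 in the knockout and 206, 159.6 and 149.7 in the control samples, with a log2 fold change of -0.19 ± 0.32 (SE) that was -0.28 with that array left out. Col4a3 read 99.2, 64.9 and 90.5 in the knockout and 117, 78.6 and 64.3 in the control samples, with a log2 fold change of -0.01 ± 0.28 (SE) that was -0.20 with it left out. Neither showed a separation of the groups. Col4a6 was below background on all 6 arrays.

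The other chains had a median log2 fold change of 0.05 over 20 genes, 12 above 0 and 8 below, and a median of 0.01 when the array labelled control replicate 3 was left out. Among the fibril-associated collagens, which sit on the surface of fibrils, 7 of 9 chains had estimates above 0 (median 0.15). Without the array labelled control replicate 3 their median was 0.03, and 4 had estimates below 0. Col22a1, a collagen of the myotendinous junction, read 1289, 1278 and 1465 in the knockout and 1072, 1584 and 589 in the control samples. The knockout values lay within the spread of the control values, which ran wide because of the array labelled control replicate 3. Its log2 fold change of 0.42 ± 0.34 (SE, limma adjusted p = 0.971) was 0.04 without that array. Its second probe set gave 0.45 with the same array lowest. Col14a1, found on fibrils of tendon and fascia, read 247, 99.0 and 127 in the knockout and 131, 180.4 and 70.5 in the control samples. Its estimate was 0.30 ± 0.46 (SE), and -0.08 without the array labelled control replicate 3. Col12a1, a close relative of Col14a1, read 356, 256 and 186 in the knockout and 148, 265 and 307 in the control samples, with an estimate of 0.17 ± 0.36 (SE) that was 0.38 with that array left out. Col20a1 read 80.7, 99.3 and 100.4 in the knockout and 79.9, 91.7 and 89.3 in the control samples. Together with Col9a1, Col16a1 and Col19a1, which lay nearer background, it had an estimate between 0.05 and 0.19, and the groups overlapped in all 4. With that array left out the estimates were -0.09 for Col9a1, -0.002 for Col16a1, -0.22 for Col19a1 and 0.12 for Col20a1. Col9a2 and Col9a3 were below background on all 6 arrays.

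The multiplexins Col15a1 and Col18a1 carry glycosaminoglycans at the basement membrane and release endostatin-like fragments. Col15a1 read 697, 577 and 505 in the knockout and 616, 616 and 733 in the control samples, with a log2 fold change of -0.15 ± 0.18 (SE, limma adjusted p = 0.971). Col18a1 read 173, 117 and 126 in the knockout and 148, 132 and 117 in the control samples, with a log2 fold change of 0.06 ± 0.24 (SE, limma adjusted p = 0.988). In each gene the groups overlapped, and with the array labelled control replicate 3 left out the estimates were -0.07 and -0.03. Col8a1 and Col8a2, short chains that build hexagonal networks around vessels, also overlapped. Col8a1 read 218, 131 and 113 in the knockout and 174, 206 and 72.7 in the control samples. Its estimate of 0.10 ± 0.46 (SE) was -0.36 without the array labelled control replicate 3. Col8a2 read 166, 124 and 127 in the knockout and 104, 137 and 93.2 in the control samples, with an estimate of 0.33 ± 0.25 (SE) that was 0.21 with that array left out. The transmembrane chain Col13a1, a component of the neuromuscular junction, read 61.6, 77.9 and 59.8 in the knockout and 49.3, 62.7 and 112 in the control samples. Its mean was below background, and only knockout replicate 2 and the array labelled control replicate 3 read above the limit. Its log2 fold change was -0.09, and 0.25 when the latter was left out.

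The epidermal and cartilage chains Col7a1, Col17a1 and Col10a1 and the chains Col23a1, Col25a1 and Col26a1 were below background on all 6 arrays. With Col2a1, Col11a2, Col4a6, Col6a4, Col6a5, Col9a2 and Col9a3 they made up 13 chains whose intensities ran from 37.9 to 67.8. Their log2 fold changes were at most 0.11 in size and carry no information on RNA below background.

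Levels of the chains also differed between samples of one group. Among the 28 chains with a mean above background, knockout replicate 1 held the highest value in 14 and the lowest in 0. The array labelled control replicate 3 held the lowest in 14 and knockout replicate 2 in 7. Over all genes above background knockout replicate 1 was highest in 13.9%, and the array labelled control replicate 3 was lowest in 47.5%. The median deviation of the 11 fibrillar chains from their means was 0.15 in knockout replicate 1, -0.38 in knockout replicate 2 and -0.16 in knockout replicate 3 on the log2 scale. In the control arrays it was 0.01, 0.04 and 0.03. The highest and the lowest of these medians both lay in the knockout group.

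**Figure D4:**
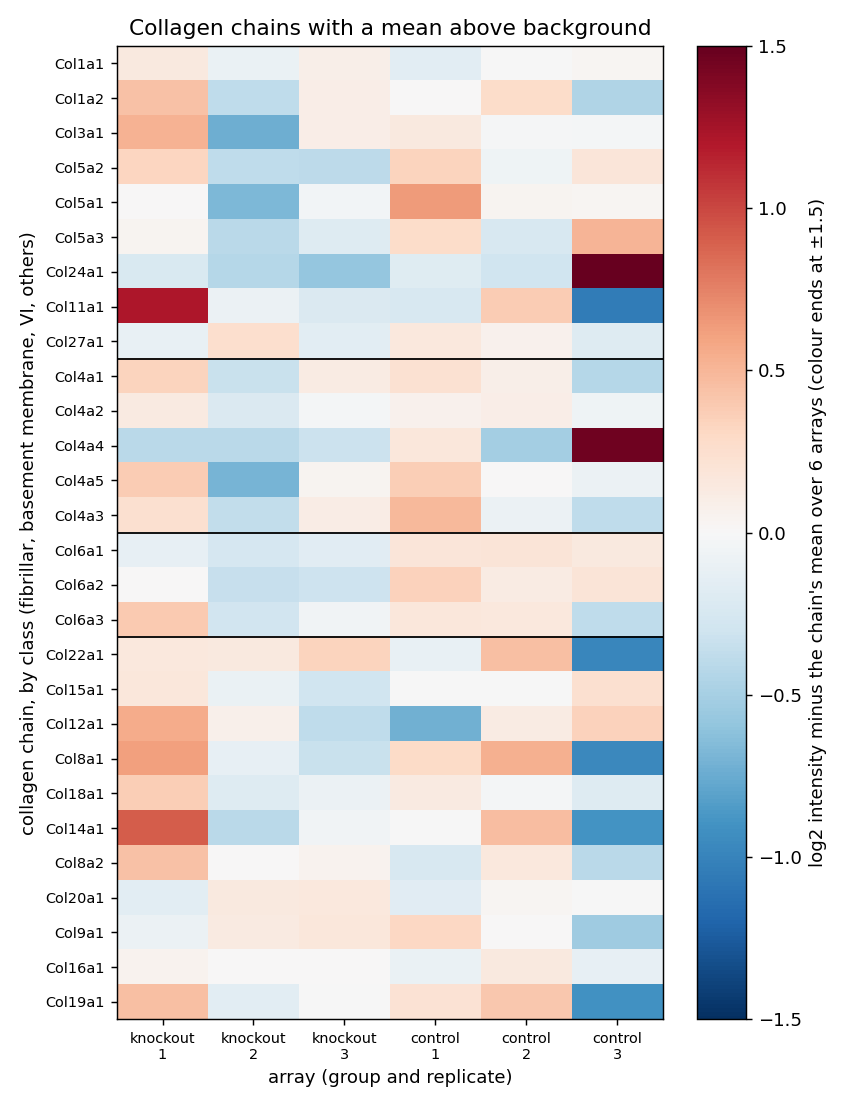
Deviation of log2 intensity from each chain's mean over 6 arrays (colour, log2 units, red above and blue below the mean) for the 28 collagen chains with a mean above background (rows, by class) in each array (columns). Knockout replicate 1 is mostly red, knockout replicate 2 mostly blue, and the array labelled control replicate 3 holds the strongest colours in both directions.

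Genes that act on collagen after translation, taken from lists set with earlier results of these data known, gave 0 calls. Of 19 genes of procollagen modification and folding 9 had estimates above 0 and 10 below, with a median of -0.02. The lowest p-values there were those of Colgalt1, a collagen galactosyltransferase, at -0.80 ± 0.41 (SE), and P4ha1, a subunit of prolyl hydroxylase, at -0.40 ± 0.21 (SE). Colgalt1 read 1273 in the array labelled control replicate 3 and 325 to 481 elsewhere, and its estimate was -0.30 without that array. P4ha1 read 233, 173 and 209 in the knockout and 241, 269 and 296 in the control samples, without overlap. Of 10 genes of propeptide removal and crosslinking 4 were above 0 and 6 below (median -0.02). Without the array labelled control replicate 3, 7 of these 10 were below 0 (median -0.16), as were 12 of the 19 modification and folding genes (median -0.07). Pcolce, which speeds removal of the C-terminal propeptide, read 1907, 1437 and 1555 in the knockout and 1946, 1989 and 2181 in the control samples. Its groups did not overlap, and the log2 fold change was -0.33 ± 0.14 (SE, unadjusted p = 0.0544, limma adjusted p = 0.971). The crosslinking enzyme Loxl1 had -0.27 ± 0.20 (SE).

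Partners of collagen in the matrix gave no call either. Of 11 fibril-binding partners 7 were above 0 and 4 below (median 0.03), with Postn, periostin, at -0.44 ± 0.37 and Fn1, fibronectin, at 0.29 ± 0.31 (SE). Of 12 genes of collagen breakdown 4 were above 0 and 8 below (median -0.05). There the lowest p-values were those of Mmp13, a collagenase below background, at -0.03, and Mmp14, a membrane-bound protease, at 0.26 ± 0.22 (SE). Of 6 collagen receptor genes 3 were above 0 and 3 below (median 0.03), with Ddr2, a receptor kinase for fibrillar collagen, at -0.26 ± 0.17 and the integrin gene Itga1 at 0.53 ± 0.47 (SE). Of 12 genes of TGF-beta signalling and its targets 7 were above 0 and 5 below (median 0.10). With the array labelled control replicate 3 left out 7 of the 12 were below 0 and the median turned to -0.07, and that of the fibril-binding partners turned to -0.05 with 8 of 11 below. Ccn2, a matrix target of that pathway, read 1517, 1089 and 929 in the knockout and 338, 1318 and 476 in the control samples, with overlap and an estimate of 0.95 ± 0.49 (SE). Tgfb1, below background on average, had -0.17 ± 0.11 (SE). None of these genes had an unadjusted p under 0.05 in limma over all 6 arrays. Without the array labelled control replicate 3, 1 propeptide removal and crosslinking gene was lower at that p. Of the breakdown and the receptor genes 1 each was then lower and 1 each higher, and the other pathway lists had 0. Over all genes 3.95% were then lower and 2.04% higher, and limma called 0 genes. The medians of the breakdown and receptor genes were then -0.07 and 0.01.

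Markers of the cells that could supply collagen RNA were read beside the chains. All 8 muscle fibre markers, among them Myh4, Acta1 and Tnnt3, were above background, so the tissue matched its label. Their summed intensity was 64370 to 65883 in the knockout and 55964 to 62304 in the control samples, without overlap and higher in the knockout. All 10 measured fibroblast markers were above background, 5 with estimates above 0 and 5 below (median 0.03), and their sums overlapped (11702 to 12023 in the knockout and 11382 to 12499 in the control samples). Within that list Thy1 had lower values without overlap (361, 294 and 271 in the knockout and 537, 377 and 510 in the control samples). Thy1, named after its values were seen, had a log2 fold change of -0.61 ± 0.21 (SE, unadjusted p = 0.0235, limma adjusted p = 0.971). The highest estimate among the fibroblast markers was 0.43. With the array labelled control replicate 3 left out 8 of the 10 fibroblast markers were below 0, with a median of -0.19. Of these Thy1 at -0.55, Mfap5 at -0.67 and Pi16 at -0.52 then had an unadjusted p under 0.05 in limma, which called 0 of them. Over all genes 3.95% were then lower and 2.04% higher at that p. All 9 tenocyte markers were above background, and all 9 had estimates above 0 (median 0.23, and 0.16 without the array labelled control replicate 3). Their sums were 11246 to 12792 in the knockout and 9347 to 13219 in the control samples. Of 8 endothelial markers 6 were above 0, with sums of 2347 to 2452 in the knockout and 1998 to 2217 in the control samples, also without overlap. Of 8 smooth muscle and pericyte markers 5 were above 0, with sums of 4312 to 4607 and 3592 to 5404, and Cnn1 was below background. Without the array labelled control replicate 3, 1 muscle fibre, 1 endothelial and 0 smooth muscle and pericyte markers were below 0. The medians of these lists were then 0.18, 0.23 and 0.14. At an unadjusted p under 0.05 in limma 2, 1 and 1 of their markers were then higher. Of 8 macrophage markers 6 were below 0 (median -0.11), with sums of 3541 to 5879 and 4061 to 6760. Folr2, without overlap, had -0.63 ± 0.25 (SE, unadjusted p = 0.0415) and Ms4a7 had -1.14 ± 0.46 (SE, unadjusted p = 0.0431), both with a limma adjusted p of 0.971 and both named after their values were seen. The highest estimate among the macrophage markers was 0.53. Higher in the knockout at an unadjusted p under 0.05 in limma were 1 muscle fibre, 1 endothelial and 1 smooth muscle and pericyte marker. In those lists 4, 1 and 2 markers were higher without overlap. Over all genes 1.58% were lower and 1.0% higher at that p, and 5.68% and 3.33% did not overlap. With the array labelled control replicate 3 left out 7 of the 8 macrophage markers were below 0, with a median of -0.43. At an unadjusted p under 0.05 in limma 1 macrophage marker was then lower and 0 higher, against 2 lower with all 6 arrays. Over all genes 53.7% had a log2 fold change below 0 with all 6 arrays. The 6 adipocyte markers were all above 0, with sums of 5147 to 9359 and 5562 to 6771, and 3 of 5 Schwann cell markers were above 0, with sums of 2291 to 2849 and 1421 to 2764. With the array labelled control replicate 3 left out the median of the adipocyte markers was 0.06 and that of the Schwann cell markers turned to -0.05. The part of any of these cell types in the values of the collagen chains was not tested.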

How the data were processed

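RNA from quadriceps of 3 knockout and 3 control mouse samples was amplified, labelled and hybridised to 1 Affymetrix array each, per the labels' protocols. The deposited values are probe set intensities, for which the submitters' processing notes name GCOS and RMA, and whose range shows a linear scale. The genome build was not given in the sources used here. Of 45101 probe sets 34958 had 1 gene symbol, 932 had several and 9211 were not listed in the annotation, and 34754 matched RefSeq by Entrez ID with 0 symbols changed. Each gene was read by its probe set with the highest mean. Intensities were log2 transformed and compared with limma 3.58.1 in R 4.3.3 (lmFit and eBayes with a trend, no covariate), adjusted by Benjamini-Hochberg over 18194 genes at 0.05, and the fit was tested on simulated data. The number of arrays limits the precision.

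The members and gene lists were chosen with earlier results of these data known. Values on every array were given for the 6 fibrillar chains and 8 other chains with the highest means, the type IV and collagen VI chains above background and the 4 chains with the smallest p, and 2 genes of smallest p were named from each pathway list. Other chains and Ccn2's array values were added after their values were seen. Background was the 95th percentile of 35 genes restricted to other tissues. Alternatives were quantile normalization, median centring, a replicate block, array weights, no trend, a background filter, probe set means and left-out arrays. Deviations of same-numbered samples correlated at 0.19, -0.15 and -0.11, and those of different-numbered samples at -0.22 to 0.22. The replicate numbers were therefore not taken as pairs in the main fit. Same-numbered samples did match in sex by their transcripts, so pairs remain possible.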

Additional observations from a re-analysis of the deposited data

How the results depend on the processing

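Limma called 0 genes and 0 collagen chains at an adjusted p of 0.05 under every setting run. Genes with an unadjusted p under 0.05 numbered 469 over all arrays, 786 without the trend, 1854 with array weights, 1090 without control replicate 3 and 1362 without both arrays with high Gapdh ratios. Chains with such a p numbered 2, with 4 under array weights and 1 to 6 when single arrays were left out. With the replicate block 377 genes and 1 chain had such a p, 0 were called, and the p of Col6a1 was 0.0523. The median over the chains ran from -0.061 to 0.026 when single arrays were left out, and that of the other collagens from -0.0062 to 0.094. The other collagens' median was 0.011 without both arrays with high ratios and 0.15 over chains above background, where that of collagen VI was -0.36. Col6a1 and Col6a2 kept their sign in every setting. Among the class medians, that of the fibrillar chains turned to 0.046 with array weights, 0.040 with probe set means, 0.010 without control replicate 2 and 0.058 without knockout replicate 3, and that of type IV to 0.067 without knockout replicate 2. Chains described on every array by the rule for named genes whose direction turned follow, and the cause was not tested. With array weights, log2 fold changes were 0.10 for Col3a1, -0.024 for Col6a3 and -0.21 for Col8a1. With probe set means they were 0.040 for Col3a1, -0.14 for Col4a1, 0.002 for Col4a3, -0.022 for Col8a1 and -0.10 for Col18a1. Col4a3 gave 0.015 after quantile normalization and 0.001 after median centring. Without both arrays with high ratios they were 0.24 for Col3a1, 0.021 for Col4a5 and -0.27 for Col8a1. The next brightest probe set, an alternative chosen after seeing the data, gave 0.15 for Col3a1, 0.17 for Col5a1, -0.36 for Col4a1, 0.49 for Col4a4, 0.059 for Col4a5, -0.14 for Col8a1 and -0.26 for Col18a1. Leaving out single arrays gave -0.090 to 0.32 for Col1a2, -0.35 to 0.28 for Col3a1, -0.11 to 0.27 for Col4a1, -0.16 to 0.020 for Col4a2, -0.42 to 0.11 for Col4a5, -0.20 to 0.23 for Col4a3, -0.15 to 0.19 for Col6a3, -0.15 to 0.40 for Col12a1, -0.36 to 0.39 for Col8a1, -0.11 to 0.17 for Col18a1 and -0.083 to 0.60 for Col14a1.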
